A study of Sus scrofa with 54 samples.

Results

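The genes described here encode the nuclear subunits of the mitochondrial respiratory chain and of ATP synthase, measured in the ileum of piglets reared in 3 different microbial environments. They were chosen by gene symbol alone: every probeset that carried a single symbol beginning with NDUFA, NDUFB, NDUFC, NDUFS, NDUFV, UQCR or ATP5, or naming a succinate dehydrogenase subunit or a cytochrome c oxidase subunit of the COX4 to COX8 families. The rule gave 63 genes on 80 of the 24123 probesets of the Affymetrix porcine array, out of 6765 genes that had a single symbol, and each gene was read from its brightest probeset. Of the 63 genes, 32 belong to complex I, 4 to complex II, 2 to complex III, 8 to complex IV and 13 to complex V, and the symbol rule also took 4 genes that are no structural subunit (the complex I assembly factors NDUFAF1, NDUFAF2 and NDUFAF3, and the coupling factor gene ATP5S).

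The animals were piglets of Large White × Landrace sows that were inseminated by the same boar. Ileal tissue was taken at 75% of the length from the pyloric sphincter. IR piglets were born indoors, moved at 24 hours of age into individual isolators, fed milk replacer until weaning and given an antibiotic cocktail (Baytril and Amoxinsol 50) daily to the end of the study. IN piglets stayed with their sow in the indoor unit, and OUT piglets stayed with their sow outdoors. All were weaned on day 28 and ate creep feed from day 29, and 6 piglets of each rearing group were sampled at day 5, day 28 and day 56, which gave 54 arrays in 9 groups. Isolator housing, milk replacer and antibiotics came together in IR, so they cannot be told apart, and neither can age and the change of diet between day 28 and day 56. Several piglets shared a sow and the study was done in consecutive runs, but neither the sow nor the run is given for an array, so neither entered a test.

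Oxidative phosphorylation joins 5 protein complexes of the inner mitochondrial membrane. Complex I takes electrons from NADH and complex II from succinate, complex III passes them from ubiquinol to cytochrome c, complex IV passes them to oxygen, and the proton gradient built on the way drives ATP synthase, complex V. In the small intestine the epithelial cells that absorb nutrients rely on this pathway for the ATP that powers ion and nutrient transport.

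Values were log2 signals from the authors' gcRMA normalization, and a difference of 1 on this scale is a factor of 2. Array medians lay between 3.98 and 4.21. The sampled tissue expressed the general markers of the absorptive epithelium in all groups, and the mean of 10 enterocyte markers lay between 12.41 and 13.08 in the IR and IN piglets at day 5. The ileal bile acid binding protein gene FABP6, the only marker of the ileum itself that was listed, was near or below the array medians at day 5, with means of 3.55 in IR, 2.96 in IN and 3.12 in OUT, apart from 1 IR piglet at 8.19, and reached 13.48, 13.98 and 13.53 at day 56. At day 28 FABP6 ranged from 4.36 to 11.76 in IR, from 2.52 to 13.04 in IN and from 8.58 to 13.81 in OUT. The labelled site of the tissue therefore could not be checked at day 5, nor in the day 28 piglets with a low FABP6. One array stood apart. The library labelled OUT day 5 replicate 3 correlated with the other arrays of its group at a mean r of 0.881 across probesets, and its enterocyte marker mean was 7.81 where the other 5 OUT piglets of day 5 reached up to 12.90. In that piglet the general epithelial genes EPCAM (12.9) and CDH1 (11.98) were as high as elsewhere, FABP1 (4.18), APOB (4.14), ANPEP (4.44) and APOA4 (4.91) were near background, and the means of the smooth muscle markers (12.08) and endothelial markers (8.16) were the highest of the group. The main counts and values that rest on this array are given with and without it, and all others include it. The tissue was whole ileum, so fewer cells of a type and less RNA per cell cannot be told apart.

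The members were among the brighter features of the array. Of the 63, 62 reached a log2 signal of 4 in at least 6 arrays. The exception was COX8H, the muscle type of cytochrome c oxidase subunit VIII, whose mean of 2.18 was at background. Mean signals over the 54 arrays ran from 5.15 (NDUFV3) to 11.6 (NDUFAB1, the mitochondrial acyl carrier protein) in complex I, from 10.01 (SDHC) to 11.96 (SDHD) in complex II, from 10.7 (UQCR10) to 11.7 (UQCRB) in complex III, up to 12.66 (COX6C) in complex IV, from 4.54 (ATP5I) to 12.6 (ATP5G3) in complex V, and from 6.43 (NDUFAF2) to 8.53 (NDUFAF3) among the genes that are no subunit. Signals of different probesets also depend on the probes, so the order of these values says nothing of the amounts of mRNA. The catalytic core was measured by NDUFV1 (9.40), which holds the NADH binding site, by NDUFV2 (10.8), NDUFS1 (10.2), NDUFS3 (10.5) and NDUFS7 (9.59) of the arms that carry electrons towards ubiquinone, by all 4 succinate dehydrogenase subunits, and by the catalytic pair of ATP synthase, ATP5A1 and ATP5B. The genes NDUFS8, UQCRC1, UQCRC2, UQCRFS1, COX4I1, COX4I2, COX6A2, COX6B1, COX6B2 and COX7A2L were not analysed here.

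The mean over the 63 genes was lowest at day 5 and higher at day 28 in each rearing group. At day 5 the piglets ranged from 10.09 to 10.53 in IR (median 10.24), from 9.86 to 10.24 in IN (median 9.999) and from 9.38 to 10.35 in OUT (median 10.07). At day 28 they ranged from 10.41 to 10.64 in IR (median 10.53), from 10.05 to 10.86 in IN (median 10.39) and from 10.10 to 10.79 in OUT (median 10.65). The corresponding values at day 56 were 10.21 to 10.64 (median 10.37), 10.25 to 10.80 (median 10.40) and 10.13 to 10.68 (median 10.28). At each age the ranges of the 3 rearing groups overlapped.

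**Figure D1:**
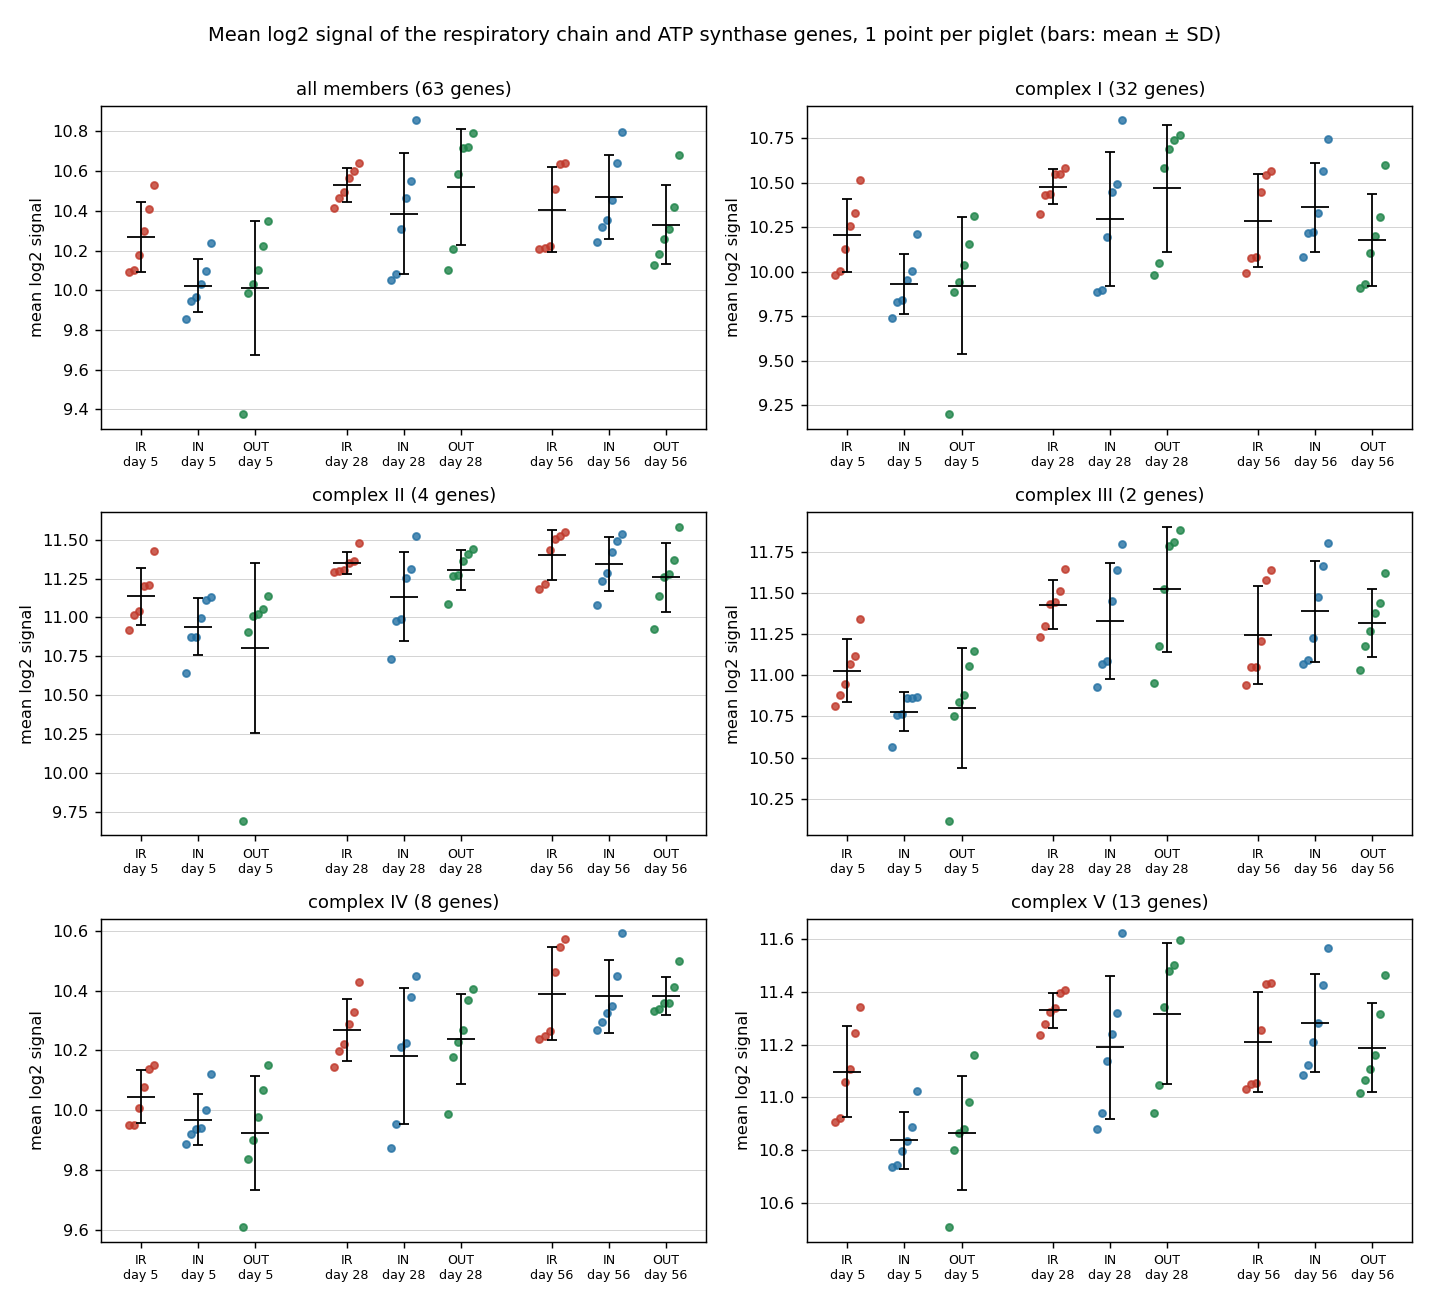
Mean log2 signal (y axis) of all 63 genes and of the genes of each complex in every piglet, for IR, IN and OUT at day 5, day 28 and day 56 (x axis). Each point is 1 piglet and the bars give the mean ± SD of 6 piglets. The OUT day 5 piglet at 9.38 lay below all other piglets in the panel of all members, and the day 28 IR piglets lay closest together (SD 0.09).

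For 53 of the 63 genes the lowest of the 9 group means was at day 5, of which 30 were in OUT, 22 in IN and 1 in IR. Without OUT day 5 replicate 3 the lowest mean was at day 5 for 52 genes, of which 51 were in IN, 1 in IR and 0 in OUT, so the order of IN and OUT at day 5 rested on that array. The highest group mean was at day 28 for 48 genes, at day 56 for 12 and at day 5 for 3, with or without that array. The widest spread of group means belonged to COX7A1 (2.01), the muscle type of subunit VIIa, followed by the assembly factors NDUFAF2 (1.45) and NDUFAF1 (1.19), by ATP5G1 (1.12), which codes for the ring subunit c, and by NDUFS6 (1.10), a zinc-binding subunit of complex I. Without that array NDUFAF2 was at 1.35, ATP5G1 at 1.12, NDUFS6 at 1.10 and NDUFAF1 at 1.04. The narrowest belonged to ATP5E (0.17), a subunit of the ATP synthase stalk, and to ATP5F1 (0.28).

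**Figure D2:**
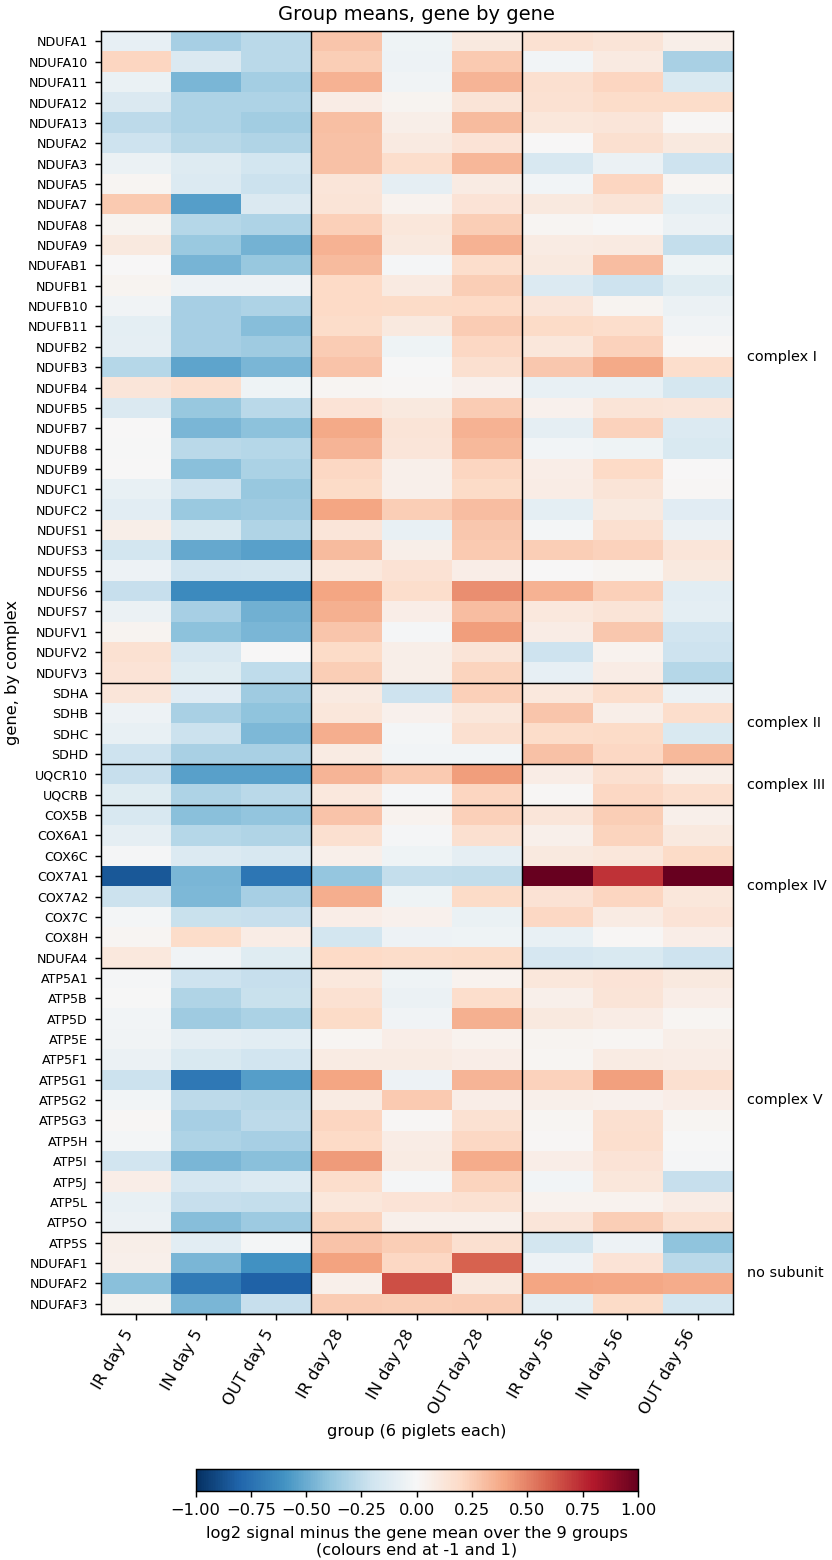
Group mean of each gene (rows, grouped by complex) in the 9 groups of 6 piglets (columns), as the log2 signal minus the mean of that gene over the 9 groups. Blue is below and red above that mean, and the colours end at -1 and 1. Most rows are blue in the day 5 columns, and COX7A1 is the row with the widest range (2.01), red in the day 56 columns only.

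Within a group the genes tended to be high or low together in the same piglet. OUT day 5 replicate 3 was the lowest of its group for 55 of the 63 genes and OUT day 5 replicate 5 the highest for 40. At day 28, IN replicate 1 was the highest of its group for 42 genes and OUT replicate 1 the lowest for 41, and at day 56 IN replicate 1 was the highest for 45 and OUT replicate 3 the highest for 44. The 63 genes of a piglet are therefore not independent measurements. The median SD of a gene within a group ran from 0.16 in IR at day 28 to 0.42 in IN at day 28.

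Between day 5 and day 28, before weaning, members of all complexes rose, and the OUT piglets had the most genes past the test. In the limma fit over all 9 groups, 37 of 63 genes were higher at day 28 than at day 5 in OUT at an adjusted p under 0.05 and 0 were lower, where 7.64% of all 23999 probesets were higher and 9.45% lower. In IN 18 were higher, against 9.94% of all probesets, and 1 was lower, against 11.1%. In IR 7 were higher, against 6.09% of all probesets, and 0 were lower, against 7.96%. At an unadjusted p under 0.05, limma gave 16 higher and 1 lower (COX8H) in IR, 34 and 1 in IN, and 50 and 0 in OUT. The shares of all probesets at that threshold are not given here, so these counts have no background to be read against. The median log2 fold change of the 63 genes was 0.52 in OUT, 0.36 in IN and 0.23 in IR, and 62, 60 and 59 of them lay above 0. Over all probesets these medians were -0.01, -0.02 and -0.01, and over the 2859 probesets with a mean signal of at least 9 they were 0.11, 0.07 and 0.08.

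The OUT values depend in part on the array that stood apart. Without OUT day 5 replicate 3, 21 genes instead of 37 were higher at day 28 in OUT, against 7.57% of all probesets, with 60 of 63 above 0 and a median of 0.38. The difference between rearing groups in the rise was tested as an interaction. It passed an adjusted p under 0.05 for 0 of the 63 genes and for 0 of all probesets in each of the 3 pairs of groups. At an unadjusted p under 0.05, limma gave 3 genes (SDHA, NDUFS1 and NDUFAF1) with a smaller rise in IR than in OUT, against 3.5% of all probesets, 1 (SDHA) with a smaller rise in IN than in OUT, against 5.85%, and 3 (NDUFA7, NDUFAF2 and ATP5G2) with a smaller rise in IR than in IN, against 5.19%. Without OUT day 5 replicate 3 the interactions with OUT had 0 genes at that threshold, where 2.76% of all probesets passed for IR and 4.8% for IN, and those of IR with IN were for NDUFA7, NDUFAF2 and ATP5G2 again, against 5.95%.

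The genes that passed in all 3 rearing groups were COX5B, COX7A2, NDUFB3, NDUFC2 and SDHD. Another 12 passed in 2 groups, 23 in 1 and 23 in none. Of the 18 genes that rose in IN, 88.9% also rose in OUT, which is 43.2% of the 37 that rose in OUT. Of the 7 that rose in IR, 85.7% also rose in OUT, 16.2% of that larger list. The same overlaps over all probesets are not given here, so these counts and shares have no background to be read against. The OUT list held 37 of the 63 genes, so its length alone gives some overlap. Whether the shares exceed that was not tested. Without OUT day 5 replicate 3, COX5B, COX7A2 and NDUFC2 were still called in OUT, whereas NDUFB3 (0.51, adjusted p = 0.0661) and SDHD (0.23, adjusted p = 0.108) were not.

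In complex IV, COX5B, a nuclear-coded subunit that faces the mitochondrial matrix, ranged in OUT from 11.16 to 12.03 at day 5 (median 11.81) and from 11.93 to 12.59 at day 28 (median 12.43). In IR it ranged from 11.81 to 12.21 (median 11.94) and from 12.27 to 12.62 (median 12.36). The 2 ages overlapped in OUT and did not overlap in IR. The rise was 0.63 in OUT (SE 0.13, adjusted p = 0.00058), 0.45 in IN (adjusted p = 0.0115) and 0.45 in IR (SE 0.13, adjusted p = 0.0161), that is 1.36-fold to 1.55-fold. COX7A2, the widely expressed type of subunit VIIa, ranged in IR from 11.50 to 12.12 at day 5 and from 12.19 to 12.52 at day 28, with no overlap, and rose by 0.58 (SE 0.15, adjusted p = 0.00615, 1.49-fold). It rose by 0.52 in OUT (adjusted p = 0.0131) and by 0.41 in IN (adjusted p = 0.0438). COX6A1, the non-muscle type of subunit VIa, rose in OUT only at this threshold (0.47, adjusted p = 0.00875), and its values in IN (0.28) and IR (0.26) did not pass. COX6C (0.06 to 0.09) and COX7C (0.09 to 0.26) passed in no group. The gene that was lower in IN was COX8H (-0.24, adjusted p = 0.0359), which is at background.

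Complex I held 18 of the 37 genes that rose in OUT (7 of the 21 without replicate 3), 8 of the 18 in IN and 4 of the 7 in IR, out of 32. NDUFS6 ranged in OUT from 6.94 to 9.13 at day 5 (median 8.76) and from 9.06 to 9.96 at day 28 (median 9.89), with a small overlap. Its rise was 1.10 in OUT (SE 0.25, adjusted p = 0.00128, 2.14-fold), 0.81 in IN (adjusted p = 0.0148) and 0.63 in IR (adjusted p = 0.0804). The 6.94 was the array that stood apart, and without it the rise in OUT was 0.78 (adjusted p = 0.00662). Of the 5 core subunits measured, NDUFV1 (0.88, adjusted p = 0.0372), NDUFS3 (0.81, adjusted p = 0.00543), NDUFS7 (0.79, adjusted p = 0.016) and NDUFS1 (0.57, adjusted p = 0.0165) rose in OUT, and NDUFV2 was at 0.12. Without the array that stood apart, only NDUFS3 of these was called (0.59, adjusted p = 0.0303). Of the core subunits, NDUFS3 was the only one called in IN (0.57, adjusted p = 0.0461), and none was called in IR, where their values ran from 0.04 (NDUFV2) to 0.50 (NDUFS3). NDUFA13, an accessory subunit also known as GRIM-19, was among the genes of smallest p in IR (0.57, SE 0.18, adjusted p = 0.0303).

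Of the succinate dehydrogenase subunits, SDHD, a membrane anchor, rose by 0.29 to 0.30 in each of the 3 groups. SDHA, the flavoprotein that oxidizes succinate, was at 0.59 in OUT (SE 0.19, adjusted p = 0.0248), at -0.09 in IN and at -0.03 in IR. In OUT at day 5 the lowest SDHA value, 9.14, was that of replicate 3 and the median was 10.82, and without that piglet the difference was 0.31 (adjusted p = 0.143). SDHB, the iron-sulfur subunit, rose in OUT (0.52, adjusted p = 0.00644, and 0.32 with adjusted p = 0.0359 without replicate 3) and IN (0.37, adjusted p = 0.0487) by its brightest probeset. Its direction turned with the choice of probeset, since a further probeset was at -0.67 in OUT and -0.79 in IN, and the mean over its probesets was at -0.0753 and -0.213. SDHC, the other membrane anchor, was called in no group (0.61 in OUT, 0.20 in IN and 0.44 in IR). In complex III, UQCR10 ranged in OUT from 9.33 to 10.69 at day 5 and from 10.31 to 11.59 at day 28, so the ages overlapped. It rose by 0.96 in OUT (SE 0.22, adjusted p = 0.00172; 0.80 with adjusted p = 0.00875 without replicate 3) and by 0.80 in IN (adjusted p = 0.00746), and its value in IR was 0.57 (adjusted p = 0.0761). UQCRB rose in OUT (0.48, adjusted p = 0.00932), and by 0.38 without replicate 3 (adjusted p = 0.041).

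In complex V, 9 of 13 genes rose in OUT (6 without replicate 3), 4 in IN and 0 in IR. ATP5G1, ATP5G2 and ATP5G3 code for the same mature ring subunit. In OUT they rose by 0.89 (adjusted p = 0.0296), 0.35 (adjusted p = 0.0493) and 0.41 (adjusted p = 0.00665). Without replicate 3 the values were 0.79 (adjusted p = 0.068), 0.25 (adjusted p = 0.173) and 0.38 (adjusted p = 0.016), so only ATP5G3 of the 3 kept its call. In IN, ATP5G2 ranged from 10.80 to 11.39 at day 5 (median 11.08) and from 11.28 to 11.81 at day 28 (median 11.68), and rose by 0.52 (SE 0.13, adjusted p = 0.00247). ATP5O, the stalk subunit that confers oligomycin sensitivity, ranged in IN from 11.40 to 11.95 at day 5 and from 11.96 to 12.29 at day 28, with no overlap, and rose by 0.48 (SE 0.12, adjusted p = 0.00305). The catalytic subunits ATP5A1 (0.26, adjusted p = 0.0483) and ATP5B (0.39, adjusted p = 0.0192) rose in OUT, and without replicate 3 ATP5A1 was no longer called (0.22, adjusted p = 0.119) whereas ATP5B was (0.37, adjusted p = 0.0399). In IR limma called 0 of the 13 at an adjusted p under 0.05 and 3 at an unadjusted one, for which no share of all probesets is given. ATP5G1 (0.60), ATP5B (0.15) and ATP5A1 (0.12) were among the values.

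Of the 4 genes that are no subunit, the assembly factor NDUFAF2 ranged in IN from 5.41 to 6.31 at day 5 (median 5.59) and from 6.50 to 8.19 at day 28 (median 6.78). The ages did not overlap, and the rise was 1.35 (SE 0.26, adjusted p = 0.000204, 2.55-fold). It was 0.91 in OUT (adjusted p = 0.0126) and 0.47 in IR (adjusted p = 0.253). NDUFAF1 rose in OUT by 1.19 (SE 0.29, adjusted p = 0.00343), and by 0.77 without replicate 3 (adjusted p = 0.0182). ATP5S (0.18 to 0.35) and NDUFAF3 (0.23 to 0.70) were called in no group.

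**Figure D3:**
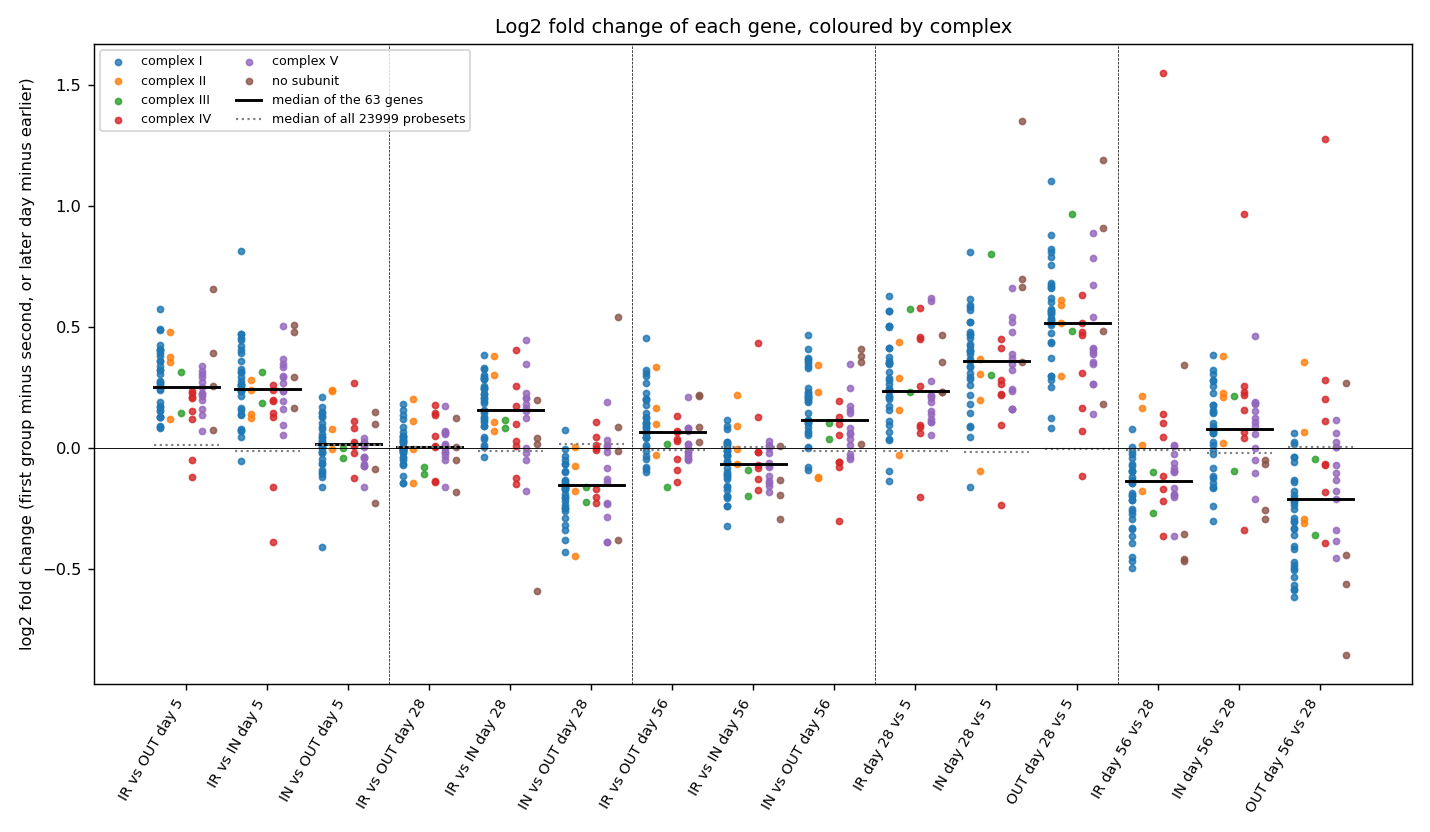
Log2 fold change (y axis) of each of the 63 genes, coloured by complex, in the 9 rearing and 6 age comparisons (x axis). Each point is 1 gene, the solid line is the median of the 63 genes and the dotted line that of all 23999 probesets. The medians of the 63 genes are highest in the day 28 against day 5 comparisons (0.52 in OUT, 0.36 in IN, 0.23 in IR), and the point far above the rest in the day 56 against day 28 comparisons is COX7A1.

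Cell markers moved over the same interval. Of 7 T cell markers, 6 were higher at day 28 at an adjusted p under 0.05 in each rearing group, with medians of 3.87 in IR, 2.93 in IN and 2.92 in OUT, and their mean level went from between 2.96 and 3.73 at day 5 to between 3.26 and 7.85 at day 28. Of 8 endothelial markers, 6 were lower in OUT, 3 in IN and 2 in IR. Of 10 enterocyte markers, 5 were higher in OUT (4 without replicate 3) and 0 in IN and IR. All 7 markers of dividing cells lay above 0 in each group, and 1 was called in OUT, 2 in IN and 0 in IR. FABP6 rose in each group, by 5.26 in IR (adjusted p = 0.00118), 6.57 in IN (adjusted p = 5.76e-05) and 7.96 in OUT (adjusted p = 2.72e-06). Its day 28 values spread widely between piglets, with an SD of 3.23 in IR, 4.17 in IN and 1.81 in OUT. Plasma cell markers were higher for 2 of 4 in each group, and macrophage markers for 4 of 5 in IR, 2 in IN and 3 in OUT. The part of these cell types in the rise of the 63 genes was not tested.

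Other mitochondrial genes were read from lists, with the same test. Mitochondrial ribosomal proteins, which build the machine that translates the mitochondrial genome, were higher at day 28 for 33 of 58 in IN, 20 in OUT (15 without replicate 3) and 3 in IR, with medians of 0.74, 0.53 and 0.24. MRPL18 had the smallest p values among them (1.42 in IN, adjusted p = 1.41e-06). Of 12 tricarboxylic acid cycle genes, 7 rose in OUT (4 without replicate 3), 2 in IN and 0 in IR, with IDH3G, a subunit of isocitrate dehydrogenase, at 1.03 in OUT (adjusted p = 4.81e-05; 0.88 without replicate 3). Of 14 genes of fatty acid oxidation, 4 rose in OUT (2 without replicate 3), 2 in IN and 0 in IR. Of 9 further assembly factors, 4 rose in OUT (1 without replicate 3), 2 in IN and 1 in IR, where 2 fell. COX10, which makes the haem of complex IV, was the one that rose in IR (1.11, adjusted p = 0.00553), and it rose by 1.64 in OUT (adjusted p = 5.49e-05). Of 12 glycolysis genes the counts were 5 in IR, 5 in IN and 1 in OUT (0 without replicate 3). Of 5 regulators of mitochondrial biogenesis, 4 lay above 0 and 1 was called in OUT without replicate 3. PPARGC1A, the coactivator among them, rose by 2.19 in OUT (adjusted p = 0.00173, and by 1.79 without replicate 3) and by 2.08 in IR (adjusted p = 0.00314), and was at 1.08 in IN (adjusted p = 0.12). Of the remaining lists, translocases had 5 of 15 higher in IN, 1 in OUT (3 without replicate 3) and 1 in IR, carriers and channels had 3 of 10 in OUT, 3 in IN and 1 in IR, and the electron carriers CYCS, ETFA, ETFB and ETFDH had 2 of 4 in OUT (1 without replicate 3), 1 in IN and 0 in IR.

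Between day 28 and day 56, from weaning onwards, COX7A1 was the only member that rose in all 3 rearing groups. In IR it ranged from 6.04 to 7.65 at day 28 (median 7.02) and from 8.06 to 8.91 at day 56 (median 8.35), with no overlap. In OUT it ranged from 6.54 to 7.43 (median 7.06) and from 8.00 to 8.55 (median 8.33), again with no overlap, and in IN from 6.38 to 7.76 (median 6.91) and from 7.50 to 8.25 (median 8.05), with an overlap. The rise was 1.55 in IR (SE 0.21, adjusted p = 2.17e-06, 2.92-fold), 1.28 in OUT (SE 0.21, adjusted p = 6.49e-05, 2.42-fold) and 0.96 in IN (SE 0.21, adjusted p = 0.00268, 1.95-fold). Its counterpart COX7A2 was not called, and its medians at day 56 were 12.11 in IR, 12.18 in IN and 12.03 in OUT, against 12.35, 12.02 and 12.21 at day 28.

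COX7A1 is the type of subunit VIIa found in muscle, and the wall of the ileum contains smooth muscle. Of 9 smooth muscle markers 0 were called by limma between day 28 and day 56 in any rearing group, also at an unadjusted p under 0.05, with medians of 0.17 in IR, 0.16 in IN and -0.01 in OUT. Of 6 striated muscle markers, 5 were at background, with group means of 1.83 to 2.04 for MYL1, 2.25 to 2.68 for TNNI2, 2.48 to 2.75 for TNNT3, 2.52 to 2.84 for MYH2 and 2.90 to 3.79 for TNNC2. CKM, the muscle creatine kinase, had group means of 7.57 to 8.46 and was not called in these comparisons. The other muscle type among the members, COX8H, was at background at every age. The part of muscle in the rise of COX7A1 was not tested.

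**Figure D4:**
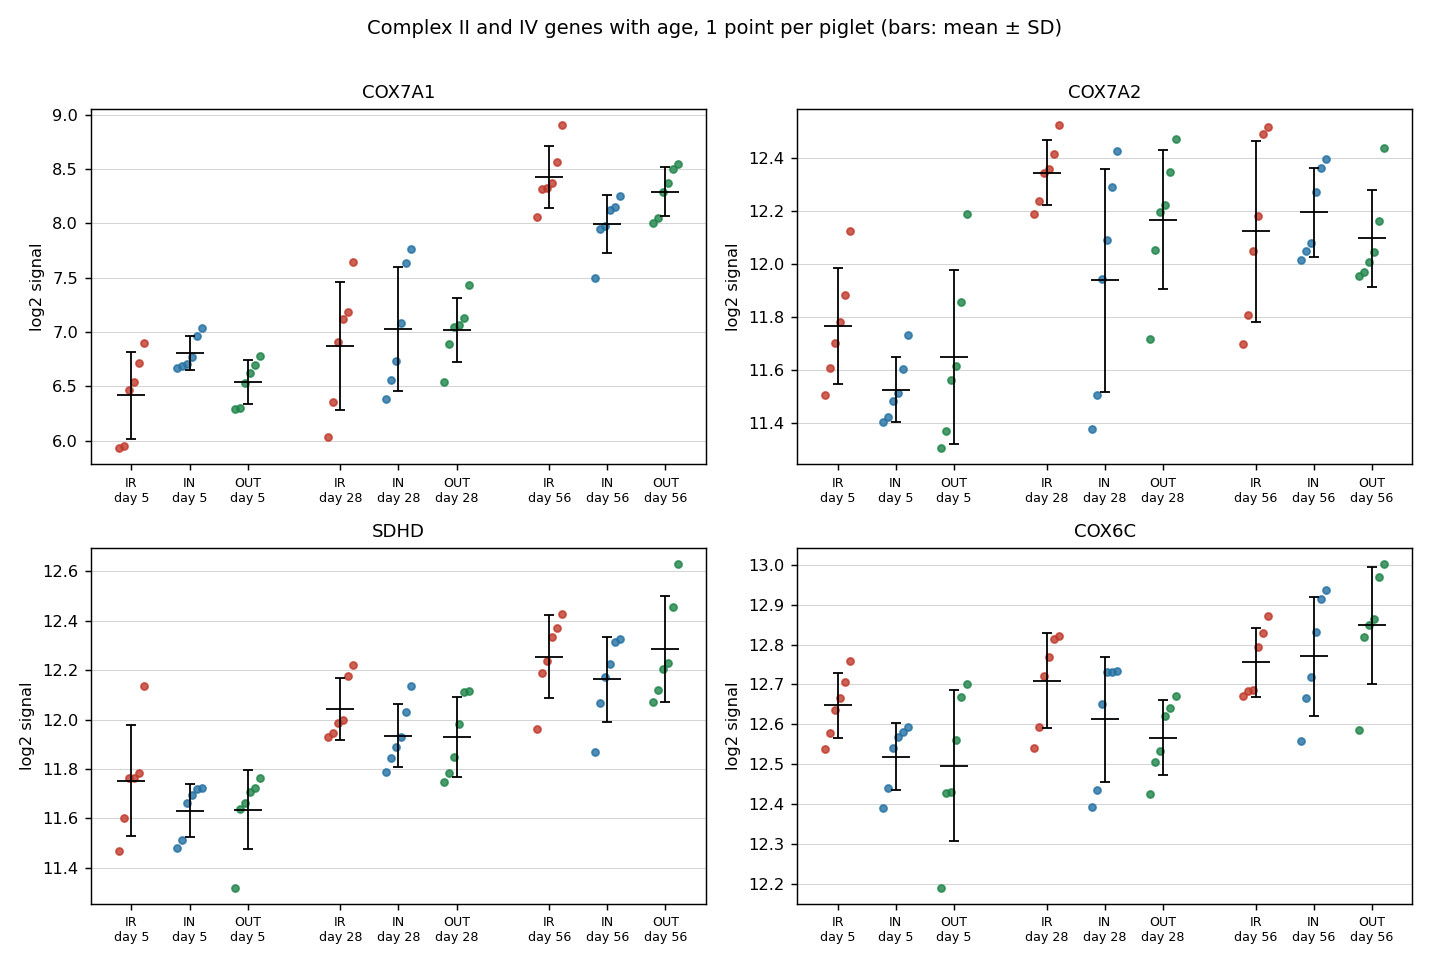
Log2 signal (y axes) of COX7A1, COX7A2, SDHD and COX6C in every piglet of the 9 groups (x axis). Each point is 1 piglet and the bars give the mean ± SD of 6. COX7A1 reached means of 8.42 in IR, 7.99 in IN and 8.29 in OUT at day 56 from 6.88, 7.03 and 7.02 at day 28, while COX7A2 was already high at day 28.

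The other members did not rise as a group after weaning. In the limma fit, 1 of 63 genes was higher at day 56 than at day 28 in IR, against 2.73% of all probesets, 1 in IN, against 2.73%, and 3 in OUT, against 4.34%, and 0 were lower at an adjusted p under 0.05, against 2.17% of all probesets in IR, 2.59% in IN and 3.34% in OUT. The medians were -0.14 in IR, 0.08 in IN and -0.21 in OUT, and 12, 44 and 15 of the 63 genes lay above 0. At an unadjusted p under 0.05, 13 genes were lower in OUT, 9 of them of complex I, against 10.2% of all probesets. By the same threshold 4 were lower in IR, against 9.35%, and 1 in IN (NDUFB1), against 10.6%. The lowest adjusted p of these was that of NDUFAF1 in OUT (-0.86, adjusted p = 0.0635), and NDUFC2 was at -0.49 in IR (adjusted p = 0.101). The further genes that rose in OUT were SDHD, which ranged from 11.75 to 12.11 at day 28 and from 12.07 to 12.63 at day 56 (0.35, SE 0.10, adjusted p = 0.0207), and COX6C, which ranged from 12.42 to 12.67 and from 12.59 to 13.002 (0.28, SE 0.08, adjusted p = 0.0216). Both overlapped between the ages, and both lost the call when only the OUT arrays were fitted, when each array was centred on its median, or when single arrays were left out.

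Interactions for this interval passed an adjusted p under 0.05 for 0 of the 63 genes and 0 of all probesets. At an unadjusted p under 0.05, 6 genes (COX5B, NDUFS1, NDUFV1, ATP5J, NDUFA10 and SDHA) had a higher change in IN than in OUT, against 9.31% of all probesets. By the same threshold 3 genes (COX5B, ATP5G3 and COX7A2) had a lower change in IR than in IN, against 8.06%, and 1 (COX6C) had a lower change in IR than in OUT, against 4.11%. For COX7A1 the rise in IR exceeded that in IN by 0.58 (SE 0.29, adjusted p = 0.628). Over the same days the median changes of the 58 mitochondrial ribosomal proteins were -0.40 in OUT, -0.38 in IR and -0.26 in IN. Those of all probesets were 0.01, -0.01 and -0.02.

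The rearing groups were compared at each age to ask whether the early environment altered expression of these genes. At day 5 most of the 63 genes had a higher mean in IR than in either sow-reared group, by a small amount each, and few of these differences passed a test. The median log2 difference was 0.25 against OUT, with 61 of 63 genes above 0, and 0.24 against IN, with 60 above 0, while IN and OUT differed by a median of 0.01. The medians over all probesets were 0.01, -0.01 and 0.01, and over the brighter probesets 0.06, 0.05 and -0.00. The 3 comparisons share their samples, so they are not independent of each other.

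No single member passed the criterion that the study's methods set for these comparisons, an unadjusted p under 0.01 with at least a 2-fold change. It was passed by 0 of 63 genes in any of the 9 rearing comparisons, where 1.8% of all probesets passed in at least 1, and an adjusted p under 0.05 was also reached by 0. No probeset of the array reached that adjusted p in limma for IN against OUT at any age, or for IR against OUT at day 28 and day 56. The smallest adjusted p there ran from 0.0958 to 0.873, so the 0 says nothing particular of these genes in those comparisons. At an unadjusted p under 0.05, limma called 12 genes higher and 0 lower in IR than in OUT at day 5, against 3.44% of all probesets higher and 2.82% lower, of which 7 were in complex I and 5 in complex V. It called 11 higher in IR than in IN, against 4.74% of all probesets, of which 6 were in complex I, 4 in complex V and 1 was NDUFAF3, and 1 lower, COX7A1, against 2.87%. Between IN and OUT it called 0, against 3.97% of all probesets in either direction.

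The array that stood apart lies in this comparison too. Without OUT day 5 replicate 3, 54 of 63 genes lay above 0 in IR against OUT, with a median of 0.14, and 4 were higher (NDUFA10, ATP5G3, NDUFB9 and ATP5B), against 3.85% of all probesets, and 0 lower, against 3.19%. Only 4 genes then lay above 0 in IN against OUT, with a median of -0.12, and 0 were higher, against 2.27%, and 1 was lower (ATP5S), against 1.15%. The IR against IN values are not touched by the array, but the spread estimated in the shared fit is, and the count there was 23 higher, against 7% of all probesets, and 1 lower, against 4.41%.

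NDUFA10, an accessory subunit of complex I, had the smallest p against OUT. Its day 5 signal ranged from 9.45 to 9.64 in IR (median 9.52), from 8.87 to 9.41 in IN (median 9.18) and from 8.40 to 9.55 in OUT (median 9.15). Every IR piglet was above every IN piglet, and IR and OUT overlapped. The difference was 0.48 against OUT (SE 0.15, 1.40-fold, adjusted p = 0.705, exact two-sided permutation p = 0.0108) and 0.36 against IN (1.28-fold, adjusted p = 0.611, exact two-sided permutation p = 0.00216, the smallest that 6 against 6 can give). It was the only one of the 63 genes whose IR and IN values did not overlap, where 0.817% of all probesets had no overlap in either direction. Without the array that stood apart the difference from OUT was 0.36 (adjusted p = 0.624).

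NDUFA7, another accessory subunit of complex I, had the smallest p against IN. It ranged from 9.30 to 10.37 in IR (median 9.70), from 8.34 to 9.48 in IN (median 8.89) and from 8.72 to 9.64 in OUT (median 9.34), so the 3 groups overlapped. The IR mean was above the IN mean by 0.81 (SE 0.20, 1.76-fold, adjusted p = 0.322, exact two-sided permutation p = 0.00649), which was the largest rearing difference of a member at day 5. IN was below OUT by a log2 difference of -0.41 (adjusted p = 0.873). NDUFA7 was also one of the genes that rose in IN from day 5 to day 28 (0.59, adjusted p = 0.0251) and its change in IR was -0.14.

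In complex V, ATP5B, the catalytic beta subunit, ranged from 12.35 to 12.61 in IR (median 12.48), from 12.08 to 12.42 in IN (median 12.10) and from 12.10 to 12.36 in OUT (median 12.26). The IR range overlapped the other ranges only at its lower edge. IR was higher by 0.30 than IN (SE 0.08, adjusted p = 0.438, exact two-sided permutation p = 0.00649) and by 0.22 than OUT (SE 0.08, adjusted p = 0.776, exact two-sided permutation p = 0.00649). ATP5G3 ranged from 12.40 to 12.92 in IR (median 12.62), from 12.19 to 12.45 in IN (median 12.23) and from 12.20 to 12.56 in OUT (median 12.31), and IR was higher by 0.35 than IN (SE 0.10, adjusted p = 0.441) and by 0.27 than OUT (SE 0.10, adjusted p = 0.771). ATP5O and the peripheral stalk gene ATP5H were also higher than in both sow-reared groups at an unadjusted p under 0.05, and so were NDUFAB1 and NDUFB9 of complex I. Without replicate 3, NDUFB9, ATP5B (0.19) and ATP5G3 (0.24) still passed that threshold against OUT, and ATP5O, ATP5H and NDUFAB1 did not.

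**Figure D5:**
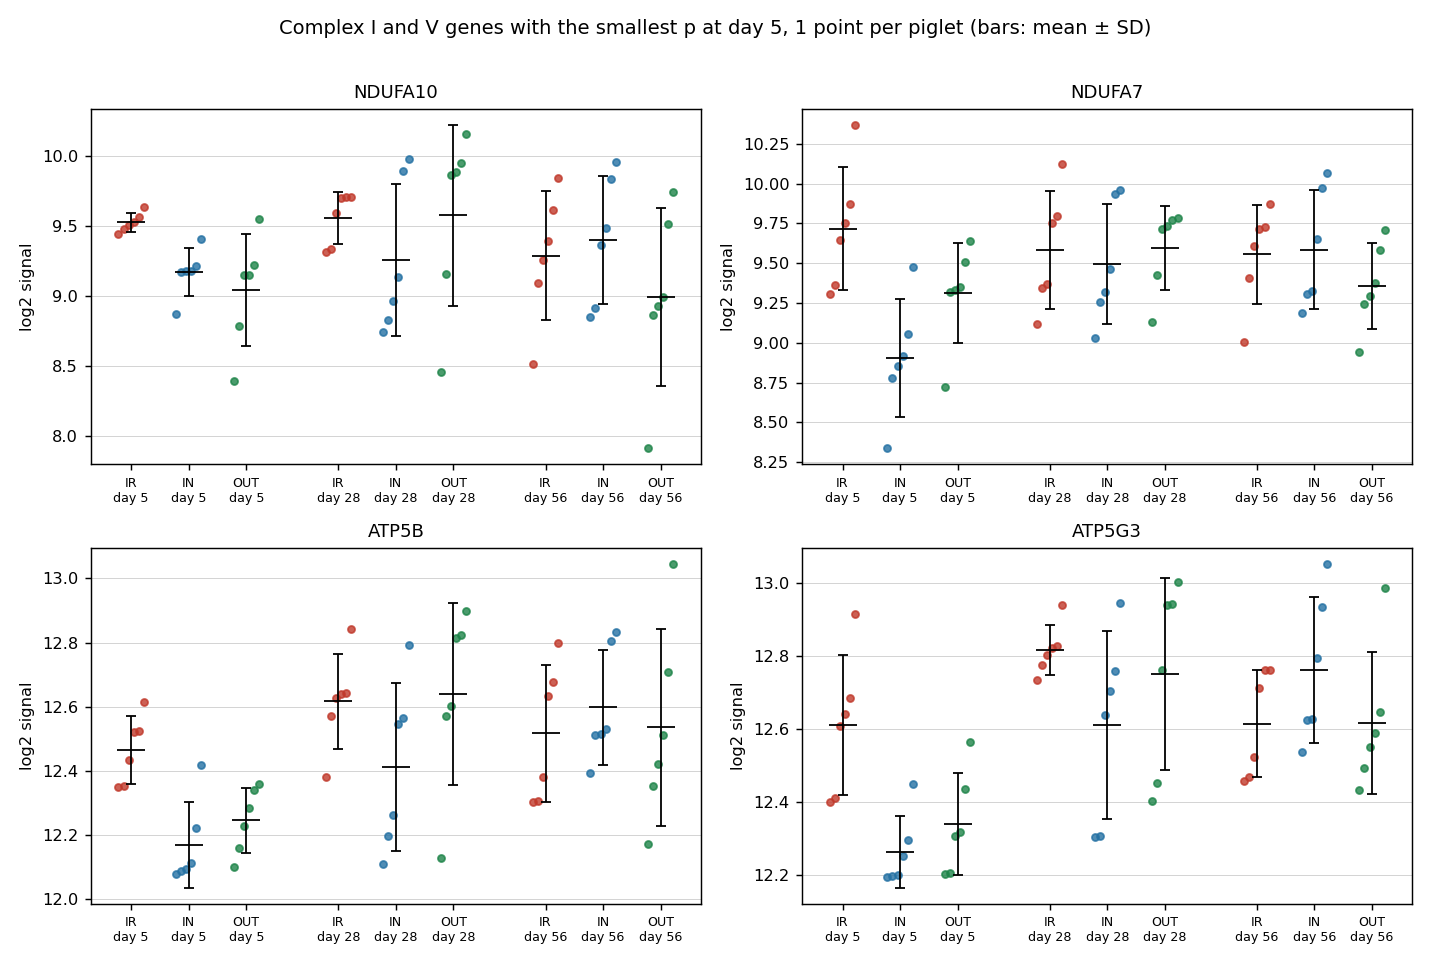
Log2 signal (y axes) of NDUFA10, NDUFA7, ATP5B and ATP5G3 in every piglet of the 9 groups (x axis). Each point is 1 piglet and the bars give the mean ± SD of 6. At day 5 the 6 IR piglets lie above all IN piglets for NDUFA10 (9.45 to 9.64 against 8.87 to 9.41), whereas at day 28 and day 56 the groups overlap.

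In complex IV, 6 of 8 genes lay above 0 in each of the 2 comparisons with IR, and 0 were called higher at an unadjusted p under 0.05 by limma. Without replicate 3, COX5B was called higher than in IN (0.26). The medians of complex IV were 0.18 against OUT and 0.17 against IN, and COX7A1 lay on the other side (-0.12 against OUT and -0.39 against IN, adjusted p = 0.611 for the latter, exact two-sided permutation p = 0.0476). The 4 succinate dehydrogenase genes were all above 0 against both groups, with medians of 0.37 against OUT (0.11 without replicate 3) and 0.19 against IN. None was called, but without replicate 3 SDHB was called higher than in IN at an unadjusted p under 0.05 (0.28, adjusted p = 0.366).

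The lists of other mitochondrial genes were read at the same threshold. Mitochondrial ribosomal proteins were higher in IR than in OUT for 18 of 58 (14 without replicate 3), with 56 above 0 and a median of 0.31, and higher than in IN for 33, with 56 above 0 and a median of 0.45. Of these, MRPL58 was at 0.53 against OUT (adjusted p = 0.592) and 0.85 against IN (adjusted p = 0.102). Tricarboxylic acid cycle genes were higher for 3 of 12 against OUT (2 without replicate 3) and 5 against IN, with medians of 0.28 and 0.32, MDH2 among them. Fatty acid oxidation genes were higher for 3 of 14 against OUT (1 without replicate 3), and their median went from 0.52 to 0.09 without replicate 3. Further assembly factors were higher for 3 of 9 against OUT (2 without replicate 3) and 2 against IN, among them FOXRED1 (1.07 against OUT, adjusted p = 0.7) and BCS1L. Glycolysis genes were higher for 1 of 12 against OUT and 6 against IN, with medians of 0.05 and 0.32. VDAC1, the main channel of the outer membrane, was higher against OUT (0.31, adjusted p = 0.547) and IN (0.35, adjusted p = 0.297) at this unadjusted threshold. In the fit without replicate 3, 2 of its list of 10 carriers and channels were higher and 1 lower against OUT. Against IN, 4 were higher and 0 lower in that fit.

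Of the 10 enterocyte markers 8 lay above 0 in IR against OUT at day 5, with a median of 1.04 and 0 called, and without replicate 3 there were 7 above 0, with a median of 0.12 and 2 called. Of the 8 endothelial markers, 6 were lower in IR than in OUT (3 without replicate 3). All 7 markers of dividing cells lay above 0, with a median of 0.42 and 0 called (0.53 and 1 without replicate 3). In IR against IN, 8 of the 10 enterocyte markers lay above 0, with a median of 0.19 and 0 called (3 without replicate 3), and 6 of the 7 markers of dividing cells, with a median of 0.40 and 3 called with or without it. Of the 7 T cell markers 2 were lower in IR than in IN, and so were 1 of the 8 endothelial markers (2 without replicate 3) and 1 of the 2 red blood cell markers, whose median was -1.18. The part of these cell types in the day 5 differences was not tested.

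At day 28 the differences between rearing groups were few. IR and OUT differed by a median of 0.00, with 33 of 63 genes above 0 and 0 called by limma at an unadjusted p under 0.05, against 2.58% of all probesets. The IN piglets had lower medians than both, by -0.16 against OUT (11 of 63 above 0), and IR was above IN by 0.16 (56 above 0). Against OUT, IN had 1 gene higher (NDUFAF2) and 2 lower (SDHA and NDUFAF1), where 5% of all probesets were called in either direction. Against IN, IR had 2 genes higher (COX7A2 and SDHC) and 1 lower (NDUFAF2), where 6.75% of all probesets were called.

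SDHA ranged from 9.92 to 11.22 in IN (median 10.77), from 11.04 to 11.23 in OUT (median 11.14) and from 10.86 to 11.27 in IR (median 10.91) at day 28. The IN values spread more widely and overlapped both other groups, and IN differed from OUT by -0.45 (SE 0.16, adjusted p = 0.977, exact two-sided permutation p = 0.0152). COX7A2 ranged from 12.19 to 12.52 in IR and from 11.38 to 12.42 in IN, a difference of 0.40 (SE 0.17, adjusted p = 0.673, exact two-sided permutation p = 0.0433). NDUFAF2 was higher in IN than in OUT (0.54, SE 0.25, adjusted p = 0.977) and than in IR, where the difference of IR from IN was -0.59 (SE 0.25, adjusted p = 0.676). PDK4, the kinase that inactivates pyruvate dehydrogenase and so limits the pyruvate that reaches the mitochondrial cycle, was lower in IR at this age by a log2 difference of -4.33 against IN (adjusted p = 0.00673) and -3.54 against OUT (SE 0.53, adjusted p = 0.0958).

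At day 56 each comparison called 1 member. NDUFS6 was higher in IR than in OUT (0.45, SE 0.21, adjusted p = 0.689, exact two-sided permutation p = 0.0823), where 7.18% of all probesets were called. It ranged from 9.20 to 9.83 in IR and from 8.23 to 9.75 in OUT. ATP5J, the coupling factor F6 gene of the stalk, was higher in IN than in OUT (0.35, SE 0.16, adjusted p = 0.626), where 7.83% were called, and ranged from 9.96 to 10.57 in IN and from 9.42 to 10.31 in OUT. COX7A1 was higher in IR than in IN (0.43, SE 0.15, adjusted p = 0.76, exact two-sided permutation p = 0.013), where 6.16% were called. The groups overlapped for all 3 genes, and the medians of the 63 genes were 0.07 (IR against OUT), 0.12 (IN against OUT) and -0.07 (IR against IN).

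Of the 63 genes 14 had further probesets with the same single symbol, and for some these did not move with the brightest. The second probeset of NDUFB3 (mean 10.9) changed from day 5 to day 28 by 0.57 in IR, 0.55 in IN and 0.54 in OUT, close to the 0.57, 0.52 and 0.62 of the brightest. A further probeset of SDHB (mean 9.17) was at -0.63, -0.79 and -0.67, with adjusted p values of 0.165, 0.0535 and 0.123, where the brightest was at 0.16, 0.37 and 0.52. For NDUFS3 a probeset of mean 6.97 rose by 1.70, 1.93 and 2.28 (adjusted p = 0.000146, 2.14e-05 and 1.24e-06), a larger rise than the 0.50, 0.57 and 0.81 of the brightest, and a probeset near background (mean 3.71) was at -0.46, -0.56 and -0.78. The SDHB and NDUFS3 values therefore depend on which probeset is read. SDHA also had a second probeset (mean 10.27) whose changes are not given here. The SDHA values in this report are those of the brightest probeset alone.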

How the data were processed

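Total RNA of piglet ileum was hybridised to Affymetrix GeneChip Porcine Genome arrays, 1 array per piglet. Per the labels, the authors scanned them with GCOS 1.2 and computed expression with GCRMA; the deposited values are log2 signals, here from -0.26 to 14.72. They were used as they are. After 124 control probesets were left out, 23999 probesets were tested, of which 10069 carry a single gene symbol of the platform annotation, 198 several and 13732 none. All 63 gene IDs have the same symbol in RefSeq. Genome positions and sequences were not analysed here.

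Linear models were fitted with limma 3.58.1 (R 4.3.3) to all probesets with Benjamini-Hochberg adjustment: for rearing, the 3 groups of a day together, and for age and interactions, all 9 groups. The methods' criterion (unadjusted p under 0.01 and at least 2-fold) and their pathway threshold (unadjusted p under 0.05) were used for rearing, and an adjusted p under 0.05 for age. Exact two-sided permutation tests over the 924 splits of 6 against 6 used scipy. The self-test on simulated data called null genes at about the nominal rate. Its noise was independent between probesets, and each probeset had the same spread in all groups of a day. It therefore checked the fit itself and did not cover genes that deviate together in a piglet, an outlying array or unlike spreads.

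The members, the lists of other genes and the tests were chosen with earlier results of these data known. Named members were the brightest and dimmest of each complex, the core subunits, paired isoforms, genes that are no subunit and the 3 of smallest p in each comparison, with others named where a count of 5 or fewer or a single pattern needed it, chosen after their values were seen. Replicates are separate piglets. Their number, 6 per group, limits the precision. Alternatives covered normalization, a filter on dim probesets, the samples and block in the fit, the choice of probeset and single arrays left out.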

Additional observations from a re-analysis of the deposited data

Results flagged for a closer look

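Of 297 groups of 6 values that were tested for an outlying piglet (the 26 genes that were among the 3 of smallest p in a comparison and 7 means, those of all members, of each complex and of the genes that are no subunit, in 9 groups), 19 had a lowest or highest value whose gap to the nearest other piglet as a share of the range of the group was above Dixon's critical value, and chance alone gives about 5% of groups. Of these, 10 were low values of OUT day 5 replicate 3. In that piglet the mean of all 63 genes was 9.38 (nearest other 9.99), the mean of complex II 9.69 (10.91), ATP5S 6.06 (7.52), NDUFAF1 4.33 (6.41), NDUFC2 8.95 (9.85), NDUFS6 6.94 (8.65), SDHA 9.14 (10.61), SDHB 10.50 (11.55), SDHC 7.82 (9.57) and SDHD 11.32 (11.64). All 4 succinate dehydrogenase genes are among them, and all 4 were among the 26 genes tested, while members outside those 26 were not tested singly. The same piglet was the lowest of its group for 55 of the 63 genes, so its low values were not particular to complex II. The enterocyte marker mean of this piglet, 7.81, was also the lowest of its group, and its part in these values was not tested.

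The others were single values. In IN day 5, replicate 2 was high for COX5B at 12.04 (nearest other 11.69), COX6A1 at 12.26 (11.98) and NDUFAF3 at 8.34 (8.10), and replicate 6 was low for the mean of complex III at 10.56 (10.76) and for the mean of the genes that are no subunit at 6.67 (6.92). NDUFA7 was low in OUT day 5 replicate 2 at 8.72 (9.32). In IR day 28, replicate 2 was high for the mean of complex II at 11.48 (11.36). COX8H, at background, was low in IN day 28 replicate 2 at 1.81 (2.15), and SDHA was low in OUT day 56 replicate 2 at 10.45 (10.82).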

How the results depend on the processing

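The medians of the 63 genes moved by less than the spread between piglets under all alternatives tried, and COX7A1 kept its rise from day 28 to day 56 in all 3 rearing groups under each of them. For the medians this bound is wide. At day 5 the SD of the piglet means was 0.18 in IR and 0.34 in OUT, beside a median difference of 0.25. Without OUT day 5 replicate 3 that median fell to 0.14, and the median of IN against OUT went from 0.01 to -0.12. Of the counts of genes called, 177 stayed within 1.5 times the main value under another setting and 33 moved, and with an array left out 363 stayed and 69 moved. Of the values of single genes, 155 lost their call with an array left out, 15 gained one and 1180 stayed. Under another setting 66 lost their call, 7 gained one, 478 stayed and 3 turned in direction. All 3 that turned were for SDHB with the mean over its probesets (-0.0241 for IR against IN at day 56, -0.213 for day 28 against 5 in IN and -0.0753 in OUT). The cause was not tested.

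At an unadjusted p under 0.05, the 12 genes of IR above OUT at day 5 became 7 with only the 2 groups in the fit or with dim probesets left out; IR above IN gave 19 instead of 11 and IN above OUT 1 instead of 0 with only the 2 groups. At day 28, genes lower in IN than in OUT numbered 1 instead of 2 with the replicate block in twos, only the 2 groups, all 9 groups, dim probesets left out, median centring, the mean over probesets or subunits only, and genes higher in IR than in IN numbered 1 instead of 2 with either block, only the 2 groups or dim probesets left out, and 0 with quantile normalization. At day 56, IR above OUT gave 3 instead of 1 with the block by number, and 0 with only the 2 groups, all 9 groups, dim probesets left out or the mean over probesets; IN above OUT gave 8 instead of 1 with the block by number, 5 with the block in twos, and 0 with only the 2 groups or dim probesets left out; IR above IN gave 2 instead of 1 with quantile normalization. At an adjusted p under 0.05, genes higher at day 28 than at day 5 numbered, with only the 3 days of a rearing group in the fit, 11 instead of 7 in IR, 11 instead of 18 in IN and 13 instead of 37 in OUT, and in IR 4 with quantile normalization and 12 with median centring. Genes higher at day 56 in OUT numbered 1 instead of 3 with only the 3 days or median centring.

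With single arrays left out, the counts ranged from 4 to 19 for IR above OUT at day 5 (4 without OUT replicate 3 or IR replicate 2, 6 without IR replicate 5, 19 without OUT replicate 5) and from 8 to 23 for IR above IN (18 without IN replicate 2, 23 without OUT replicate 3). They ranged from 1 to 10 for genes lower in IN than in OUT at day 28 (10 without IN replicate 1, 6 without OUT replicate 2), from 0 to 12 for IR above IN at day 28 (12 without IN replicate 1), from 0 to 4 for IR above OUT and from 0 to 10 for IN above OUT at day 56 (4 and 10 without OUT replicate 3), and from 1 to 3 for IR above IN at day 56. From day 5 to day 28 they ranged from 2 to 8 in IR, from 6 to 28 in IN (6 without day 28 replicate 1, 9 without day 28 replicate 2 or day 5 replicate 6, 28 without day 28 replicate 3) and from 21 to 46 in OUT (21 without day 5 replicate 3, 23 without day 28 replicate 3 or 4), and from day 28 to day 56 in OUT from 1 to 3. The correlation of the deviations of same-numbered piglets was over 0.1 in every pair in no comparison, although all were above 0 for IR and OUT at day 56 (0.072 to 0.242). With the numbers taken in twos it was over 0.1 in every pair for IR and OUT at day 28 alone (0.153 to 0.393). The labels do not say what the numbers mark. With the replicate block by number, the counts at day 5 were 11 for IR above OUT and 15 for IR above IN, and 36, 15 and 5 rose from day 5 to day 28 in OUT, IN and IR. Apart from the fits without OUT day 5 replicate 3, the shares of all probesets in these refits are not given either. Their counts have no background to be read against. The block in the age fits and the lists, interactions and group order without OUT day 5 replicate 3 were added after the data were seen.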
